A study of Mus musculus with 9 samples.

Results

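The 9 genes described here, Dlx1, Dlx2, Dlx5, Dlx6, Dlx6os1, Sp8, Sp9, Gad1 and Gad2, were taken by symbol from the 32285 mouse genes counted in every library, and all 9 were present. They were listed by name for their place in 1 pathway, with earlier results of these data known. They were followed in droplet-based 5′ single-cell RNA-seq of dissociated brain from 5 tumor-bearing and 4 control mice, aged 6 to 8 weeks, by UMI (unique molecular identifier, 1 captured transcript each). Tumor mice were NestinCreERT2;Fus1, in which Nestin-driven, inducible Cre recombines a ZFTA-RELA fusion allele in embryonic radial glia and gives the EPZFTA-RELA model of ependymoma. Control mice were NestinCreERT2;TdT and carried the Cre allele without the fusion. Cells were enriched on Percoll and sorted with DAPI and Ter119, an erythroid antigen, so the tumor libraries also hold the host brain dissected with the tumor.

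The DLX genes encode homeobox transcription factors that lie in pairs in the genome. They are transcribed in the ganglionic eminences of the embryo and in the neuroblasts that migrate from the subventricular zone to the olfactory bulb, where they direct progenitors to a GABAergic fate. Dlx1 and Dlx2 act early in progenitors, and Dlx5 and Dlx6 lie downstream of them. Dlx6os1 is a long noncoding RNA of the Dlx5 and Dlx6 locus. Sp8 and Sp9 are zinc-finger factors of the same lineage, and Gad1 and Gad2 encode the glutamate decarboxylases that make GABA.

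In the annotation of GRCm38, the first DLX pair lies at chr2:71528113-71533981 (Dlx1, + strand) and chr2:71543408-71546754 (Dlx2, -), and the second at chr6:6877805-6882085 (Dlx5, -) and chr6:6863334-6868568 (Dlx6, +). Dlx6os1 (chr6:6820189-6871592, -) spans Dlx6 on the other strand and shares no exon with it. Dlx1 shares exonic sequence with the antisense gene Dlx1as (chr2:71516454-71537891, -). Whether the counting used strand is not given in the sources used here, so reads of Dlx1 and Dlx1as are uncertain against each other. Sp8 lies at chr12:118846329-118852576 (+), Sp9 at chr2:73271925-73284706 (+), Gad1 at chr2:70553072-70602014 (+) and Gad2 at chr2:22622205-22693874 (+).

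Promoters of 5 members are shown because the data set these genes apart: Dlx1 and Dlx2, which dominate the DLX transcripts of the tumor cells, Dlx6os1 of the other DLX locus, and the decarboxylase genes, whose levels parted from each other in tumor cells. Each is 300 bases of RefSeq sequence (GRCm38.p6), from 250 before a transcription start to 50 from it, 5′ to 3′ on the strand of the gene. A promoter was given for 7 of 9 members, all except Dlx5 and Dlx6. Capitals mark TAATTA or TAATTG on either strand, letters that homeodomain proteins are known to bind.
Dlx1 (chr2:71529195-71529494, +): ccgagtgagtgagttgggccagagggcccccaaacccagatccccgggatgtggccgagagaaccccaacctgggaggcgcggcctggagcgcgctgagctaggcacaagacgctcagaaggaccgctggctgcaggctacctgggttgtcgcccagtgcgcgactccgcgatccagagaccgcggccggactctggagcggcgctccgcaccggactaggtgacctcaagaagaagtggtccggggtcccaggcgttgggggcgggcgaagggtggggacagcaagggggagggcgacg
Dlx2 (chr2:71546705-71547004, -): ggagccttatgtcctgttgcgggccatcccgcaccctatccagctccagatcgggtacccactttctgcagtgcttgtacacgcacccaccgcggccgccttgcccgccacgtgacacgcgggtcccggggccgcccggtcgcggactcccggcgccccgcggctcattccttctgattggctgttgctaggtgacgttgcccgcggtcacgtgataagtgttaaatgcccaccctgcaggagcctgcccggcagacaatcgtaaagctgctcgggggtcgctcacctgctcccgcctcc
Dlx6os1 (chr6:6869484-6869783, -): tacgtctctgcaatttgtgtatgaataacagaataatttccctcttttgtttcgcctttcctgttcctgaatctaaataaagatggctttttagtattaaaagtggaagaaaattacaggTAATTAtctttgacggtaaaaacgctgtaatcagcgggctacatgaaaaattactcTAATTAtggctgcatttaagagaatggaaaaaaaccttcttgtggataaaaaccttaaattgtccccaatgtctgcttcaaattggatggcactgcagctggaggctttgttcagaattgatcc
Gad1 (chr2:70561879-70562178, +): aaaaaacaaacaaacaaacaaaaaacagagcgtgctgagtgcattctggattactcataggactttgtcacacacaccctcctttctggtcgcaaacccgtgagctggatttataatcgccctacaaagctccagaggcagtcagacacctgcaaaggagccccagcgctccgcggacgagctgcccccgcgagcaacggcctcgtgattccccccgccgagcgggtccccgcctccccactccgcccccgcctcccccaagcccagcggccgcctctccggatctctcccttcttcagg
Gad2 (chr2:22622077-22622376, +): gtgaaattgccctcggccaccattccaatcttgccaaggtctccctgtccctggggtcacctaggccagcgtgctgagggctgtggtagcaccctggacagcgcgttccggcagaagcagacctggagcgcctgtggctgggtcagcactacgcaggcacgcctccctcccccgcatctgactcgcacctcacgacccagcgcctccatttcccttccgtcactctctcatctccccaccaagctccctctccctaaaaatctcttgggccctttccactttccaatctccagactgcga
This Dlx6os1 promoter held TAATTA 2 times and no TAATTG, and a second Dlx6os1 promoter of the table, not shown (chr6:6861634-6861933, -), held each 1 time. The Dlx1, Dlx2, Gad1 and Gad2 windows held neither, the Sp9 window held TAATTG 1 time, and 1 of 3 Sp8 windows held TAATTA 1 time. Of 32851 promoters of this length, 5.29% held TAATTA, 8% held TAATTG and 12.4% held either. The Dlx6os1 window shown was 35.7% G and C, against 61.3% in Gad2, 69.3% in Dlx1 and a median of 52.7% over all promoters. A match is a description of letters, not a binding site.

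After filtering, 4023 to 6358 cells per control and 1720 to 5108 cells per tumor were kept, with 5885675 to 37573835 UMIs per mouse. Levels are given as UMIs per 1000000 UMIs (CPM) of a summed group of cells. Free RNA was read from the 3000 smallest barcodes of each library. In controls it held 176 to 203 CPM of Gad1 and 259 to 295 CPM of Gad2, and in tumors 3 and 5 it held 70.1 and 125 CPM of Dlx1. Cell types were gated by 8 markers each, none of them a member. Cells enter a gate by these markers, so that all 8 neuroblast markers, Dcx and Sox11 among them, were higher inside their gate than outside in every mouse, as all 8 microglia markers were, is a description of the gates. All 8 interneuron markers were likewise higher inside their gate in the controls, with Sst at 399 to 563 CPM inside and still 221 to 254 CPM outside. Where barcode lists could be compared, a pair of libraries shared 1 to 9 kept barcodes.

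Over all kept cells, the DLX genes were above every control in tumors 3 and 5 and mostly below the controls in the other 3 tumors. Dlx1 was 13.3, 15.4, 19.8 and 14.9 CPM in controls 1 to 4 and 9.69, 6.28, 120.4, 5.03 and 201.9 CPM in tumors 1 to 5. Tumors 3 and 5 lay above all controls and the other 3 below all of them. Dlx2 was 2.77, 3.63, 5.49 and 3.36 CPM in controls and 2.89, 2.55, 47.0, 2.10 and 169.2 CPM in tumors, with the same tumors on top, tumors 2 and 4 below all controls and tumor 1 within their range. Dlx5, Dlx6, Dlx6os1 and Sp9 divided the tumors as Dlx1 did. For Dlx6os1, the controls stood at 39.8 to 53.4 CPM, tumors 3 and 5 at 106.0 and 129.6 CPM and the other 3 at 3.26 to 13.4 CPM. Sp8 divided the mice differently, with 0.652 to 1.89 CPM in controls and 3.06, 5.04, 35.0, 0.319 and 3.17 CPM in tumors 1 to 5, so that 4 of 5 tumors exceeded all controls. Fewer cells of a type and less RNA per cell cannot be told apart in such sums.

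**Figure D1:**
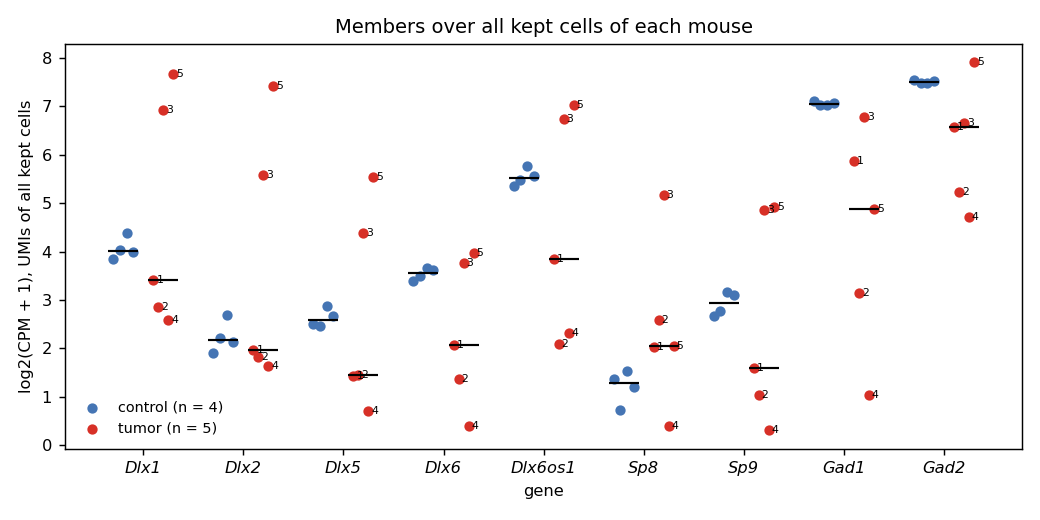
Level of each member over all kept cells of a mouse as log2(CPM + 1), with 1 point per mouse, control mice in blue, tumor mice in red with their replicate number, and a line at the median of each group. Tumors 3 and 5 lie above the controls for Dlx1, Dlx2, Dlx5, Dlx6, Dlx6os1 and Sp9, and all 5 tumors lie below the controls for Gad1.

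The decarboxylase genes did not follow the DLX genes. Gad1 was 137, 128, 129 and 133 CPM in the controls and 57.8, 7.82, 108.6, 1.06 and 28.6 CPM in the tumors. All 5 tumors were below all controls, as were 33.2% of the 17588 genes tested (two-sided exact permutation test over mice for Gad1, p = 0.0159, the smallest that 5 against 4 mice allows). Gad2 was 177 to 185 CPM in controls and 94.0, 36.6, 99.2, 25.4 and 238.7 CPM in tumors, with tumor 5 above all controls and the other 4 below (exact permutation p = 0.0794). The exact p of the other 7 members ran from 0.111 for Sp8 to 0.81 for Dlx6os1.

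The edgeR quasi-likelihood test called 2 of 9 members different between tumors and controls at an adjusted p under 0.05, against 61.6% of all genes tested (32.3% higher and 29.4% lower). Dlx2 (log2 fold change 3.80, SE 1.37, adjusted p = 0.0348) and Sp8 (2.86, SE 1.06, adjusted p = 0.0379) were higher in tumors. Dlx1 (2.32, SE 1.08, adjusted p = 0.084) and Gad1 (-1.62, SE 0.85, adjusted p = 0.119) did not pass, and the other 5 ran from -0.66 for Gad2 to 1.63 for Dlx5. The Dlx2 call was lost without tumor 5 (1.89) and the Sp8 call without tumor 2 (2.98) or tumor 3 (1.40). No member was called when any 1 control was left out.

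In control brain, the summed DLX genes were on average highest in neuroblast-gated cells. Dlx1, Dlx2, Dlx5 and Dlx6 summed to 98.9, 98.3, 203 and 64.8 CPM in the 84 to 97 neuroblast-gated cells of controls 1 to 4. These sums rest on few cells, since 16, 14, 29 and 10 cells held all 22, 38, 81 and 23 UMIs, and the 5 cells with most held 50%, 65.8%, 34.6% and 78.3% of them. Interneuron-gated cells followed with 55.8 to 79.9 CPM and overlapped them, and both stood above the 16.0 to 28.7 CPM of microglia-gated cells, a type that should lack these genes. Other non-neuronal gates held more, with 28.2 to 41.6 CPM in oligodendrocyte-gated cells. Astrocyte-gated cells had 5.07 to 82.0 CPM, the highest from 7 UMIs in control 1, which overlaps the neuroblast-gated range. Dlx6 did not follow the sum, with a mean of 8.71 CPM (SD 4.55, n = 4) in neuroblast-gated, 18.0 CPM (SD 2.12) in interneuron-gated and 8.36 CPM (SD 3.45) in microglia-gated cells. Sp8 was 7.76 to 35.1 CPM in neuroblast-gated cells and at most 3.72 CPM in interneuron-gated cells. Sp9 was 12.9 to 60.1 CPM in the first and 3.72 to 11.3 CPM in the second, which overlaps the 2.29 to 11.5 CPM of microglia-gated cells. Dlx6os1 was broader, with 70.4 to 205 CPM in neuroblast-gated, 104 to 157 CPM in interneuron-gated and 59.8 to 88.8 CPM in spiny-neuron-gated cells, against 8.85 to 25.8 CPM in microglia-gated cells. Oligodendrocyte-gated cells held 42.0 to 52.1 CPM of it, above the 12.7 to 15.5 CPM of free RNA, so it was not confined to neuronal gates.

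In the controls, Gad1 and Gad2 were high outside the interneuron gate too. Gad1 was 167 to 208 CPM in interneuron-gated cells and 110.5 to 135 CPM in microglia-gated cells. The interneuron-gated range overlaps the free RNA of the same libraries, and the microglia-gated range lies below it. Gad2 was 223 to 267 CPM in interneuron-gated and 177 to 203 CPM in microglia-gated cells. The lower Gad1 of tumor libraries was thus measured against controls in which most Gad1 UMIs were in cells outside the interneuron gate.

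In tumors, cells with at least 1 UMI of the luciferase, IRES or fusion sequence were set apart as fusion-allele cells. There were 83, 991, 103, 3795 and 1235 of them in tumors 1 to 5, and 0 to 6 cells with such a UMI in a control. A recombined cell in which no transgene UMI was captured is counted among the other cells, and a transgene UMI from free RNA or a doublet would put another cell among the fusion-allele cells, which was not tested. Of all microglia-gated cells, 1.68%, 13.8%, 1.25%, 43.1% and 14.7% had a transgene UMI in tumors 1 to 5 (258 of 598 in tumor 4), against 28.6%, 53.2%, 39.3%, 88.2% and 41.1% of radial-glia-gated cells. In tumor 3, 22 of the 103 fusion-allele cells were erythroid-gated. Transgene UMIs were thus also found in cells gated as microglia or erythroid, and whether these cells were recombined was not tested. A fusion-allele cell here means only a cell with a captured transgene UMI. Unless said otherwise, gated cells of tumors are those without a transgene UMI.

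Between tumors, the DLX genes of fusion-allele cells ran over a wide range. Dlx1 was 53.2, 1.87, 257.9, 5.99 and 216.9 CPM in tumors 1 to 5, and 5.10, 1.32, 8.64, 0.979 and 31.2 CPM in the microglia-gated cells of the same tumors. Tumors 3 and 5 stood far above their microglia-gated cells, while in tumor 2 the counting interval (0.997 to 3.20 CPM, 95% Poisson) held the microglia value. Dlx2 was 12.5, 0.432, 111, 2.13 and 171 CPM. Dlx5 was 27.1 CPM in tumor 3 and 33.7 CPM in tumor 5, against at most 3.13 CPM in the others. Dlx6os1 was 0, 0.576, 88.2, 4.53 and 92.3 CPM, again high in tumors 3 and 5, whose free RNA held 63.0 and 74.7 CPM. Sp9 was 0, 0, 21.7, 0.271 and 19.8 CPM, where 0 UMIs allow up to 9.39 CPM in tumor 1 and 0.432 CPM in tumor 2. Sp8 was 3.13, 5.62, 25.8, 0.372 and 2.93 CPM, so tumors 3 and 5 were alike in Dlx1, Dlx6os1 and Sp9 and apart in Sp8.

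These levels came from very different numbers of cells. In tumor 5, 742 of 1235 fusion-allele cells had a UMI of Dlx1, Dlx2, Dlx5 or Dlx6 (60.1%), and the 5 cells with most held 3.36% of the 2797 UMIs of these 4 genes. In tumor 3, 10 of 103 fusion-allele cells held all 296 such UMIs, and 1 cell held 86. In tumor 1, 1 cell held 21 of 24, and in tumor 2, 1 cell held 18 of 26. In tumor 4, 50 of 3795 cells held 276. The DLX levels of fusion-allele cells in tumors 1, 2 and 3 thus rest on 10 or fewer cells each.

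To compare shares at 1 depth, each cell was thinned to 2000 UMIs, which left out 0 to 18 shallower fusion-allele cells and 0 to 120 shallower microglia-gated cells per tumor. The share of fusion-allele cells with a Dlx UMI was then 1.52%, 0.409%, 11.8%, 0.949% and 41.1% in tumors 1 to 5, and the share of microglia-gated cells 2.53%, 0.822%, 1.45%, 0.294% and 11.4%. The fusion-allele share was below this background in tumors 1 and 2 and far above it in tumors 3 and 5. Over all microglia-gated cells, with or without a transgene UMI, the share was 2.48%, 0.712%, 1.43%, 0.502% and 13.5%, and those with one stood at 0.775% in tumor 4 and 26% in tumor 5. The 0.949% of tumor 4 thus lay above its microglia-gated shares of 0.294%, 0.502% and 0.775%. It was closest to the last, which comes from 258 cells. Before thinning, the median fusion-allele cell had 2968 to 7018 UMIs, the median microglia-gated cell 2356 to 5878 UMIs, and the microglia-gated shares were 2.39%, 1.31%, 5.32%, 0.588% and 23.0%.

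**Figure D2:**
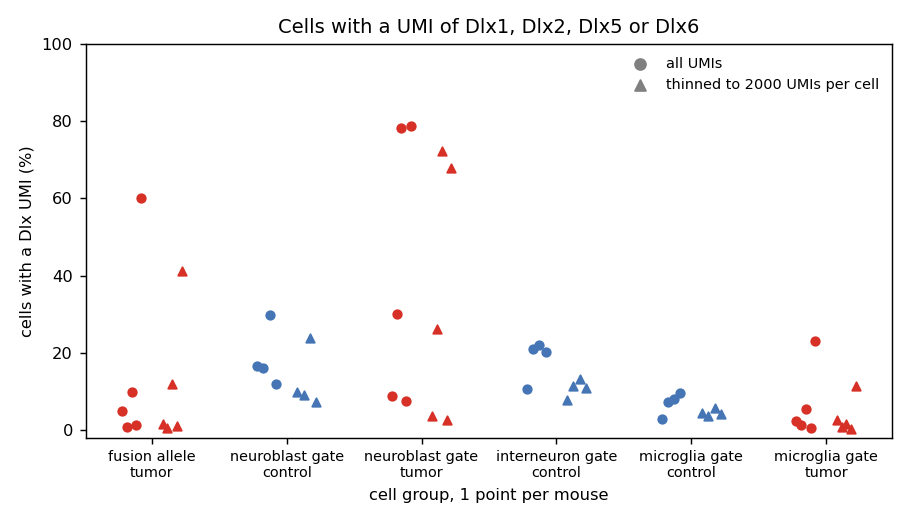
Percentage of cells with a UMI of Dlx1, Dlx2, Dlx5 or Dlx6 by cell group, with 1 point per mouse, circles for all UMIs and triangles after thinning each cell to 2000 UMIs, control in blue and tumor in red. Fusion-allele cells of tumor 5 stand at 60.1%, against 0.807% to 9.71% in the other 4 tumors.

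Fusion-allele cells were set against microglia-gated cells of the same tumors in a comparison added after the data were seen (edgeR quasi-likelihood test, tumor as a block). Of the 9 members 6 were higher, where 47.4% of 13216 genes were called (25.4% higher and 21.9% lower). Microglia were taken as a type that should lack these genes, so this direction was largely set by the choice. The count of 6 is a description and is not weighed against the share of all genes. In tumors 1 to 5, microglia-gated cells held 2, 0, 2, 1 and 37 UMIs of Dlx2 and 1, 3, 3, 0 and 0 UMIs of Sp8. They held 0, 2, 1, 0 and 7 UMIs of Dlx5. Dlx2, Dlx5 and Sp8 thus met the filter on low counts only through the fusion-allele cells, where they were high. Their calls are not independent of that height. Dlx1 (log2 fold change 3.05, SE 0.44, adjusted p = 0.000275), Dlx2 (3.23, SE 0.55, adjusted p = 0.00082), Dlx5 (2.86, SE 0.65, adjusted p = 0.00462) and Sp8 (2.90, SE 0.60, adjusted p = 0.00278) were higher in 5 of 5 tumors. Gad2 was higher in 4 of 5 tumors (1.27, SE 0.35, adjusted p = 0.013) and Dlx6os1 in 3 of 5 (2.11, SE 0.47, adjusted p = 0.00392). Dlx6 (1.03, SE 0.54, adjusted p = 0.143), Sp9 (2.37, SE 0.96, adjusted p = 0.0749) and Gad1 (-0.07, SE 0.42, adjusted p = 0.913) did not pass. Without tumor 5, the calls were Dlx1, Dlx2 and Sp8. The part of the split on a transgene UMI in this difference was not tested. Microglia-gated cells with one had 0, 13.3 and 139 CPM of the summed Dlx genes in tumors 2, 4 and 5, against 2.64, 1.47 and 68.5 CPM in those without. The 13.3 CPM of tumor 4 was 25 UMIs in 1.16% of 258 cells. When fusion-allele cells outside the microglia gate were set against all microglia-gated cells, an alternative chosen after seeing the data, Dlx1 (2.39), Dlx2 (2.74), Dlx5 (2.81), Sp8 (2.60) and Gad2 (1.02) were called higher and Dlx6os1 was not (1.50, adjusted p = 0.0626).

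Set against all other cells of the same tumors, fusion-allele cells differed in 1 of 9 members, where 32.9% of 15835 genes were called (15.7% higher and 17.2% lower). Gad1 was lower (log2 fold change -1.03, SE 0.34, adjusted p = 0.0395), in 5 of 5 tumors, and its call was lost when tumor 1, 2, 3 or 4 was left out. Dlx1 stood at 0.77 (SE 0.48, adjusted p = 0.246), higher in 4 of 5 tumors, and was called higher without tumor 2 (1.27). The other 7 ran from -0.81 for Sp9 to 0.36 for Dlx2 and did not pass.

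Averaged over tumors, the summed DLX genes were highest in neuroblast-gated cells without a transgene UMI, at 515 CPM (SD 552, n = 5). Dlx1 there was 16.8, 181, 765.5, 12.5 and 405 CPM in tumors 1 to 5, from 34, 73, 97, 40 and 730 cells. Dlx6os1 was 143, 99.3, 823, 58.4 and 427 CPM, and Sp9 was 25.2, 23.4, 226.7, 0 and 99.3 CPM. Tumor 3 was highest for each of these 3 genes and tumor 4 lowest. The values of tumors 1 and 4 rest on single cells: their Dlx6os1 was 17 UMIs in 2 of 34 cells and 14 UMIs in 1 of 40 cells, and their Dlx1 was 2 and 3 UMIs. Sp8 was 272 CPM in tumor 3, 40.9 CPM in tumor 2 and 7.12 CPM in tumor 5. In tumors 3 and 5, 78.4% and 78.8% of these cells had a Dlx UMI (72.2% and 67.8% after thinning), against 11.9% to 29.9% of neuroblast-gated cells in controls (7.14% to 23.7%). In tumors 1 and 4 the shares were 8.82% and 7.50%, below every control.

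**Figure D3:**
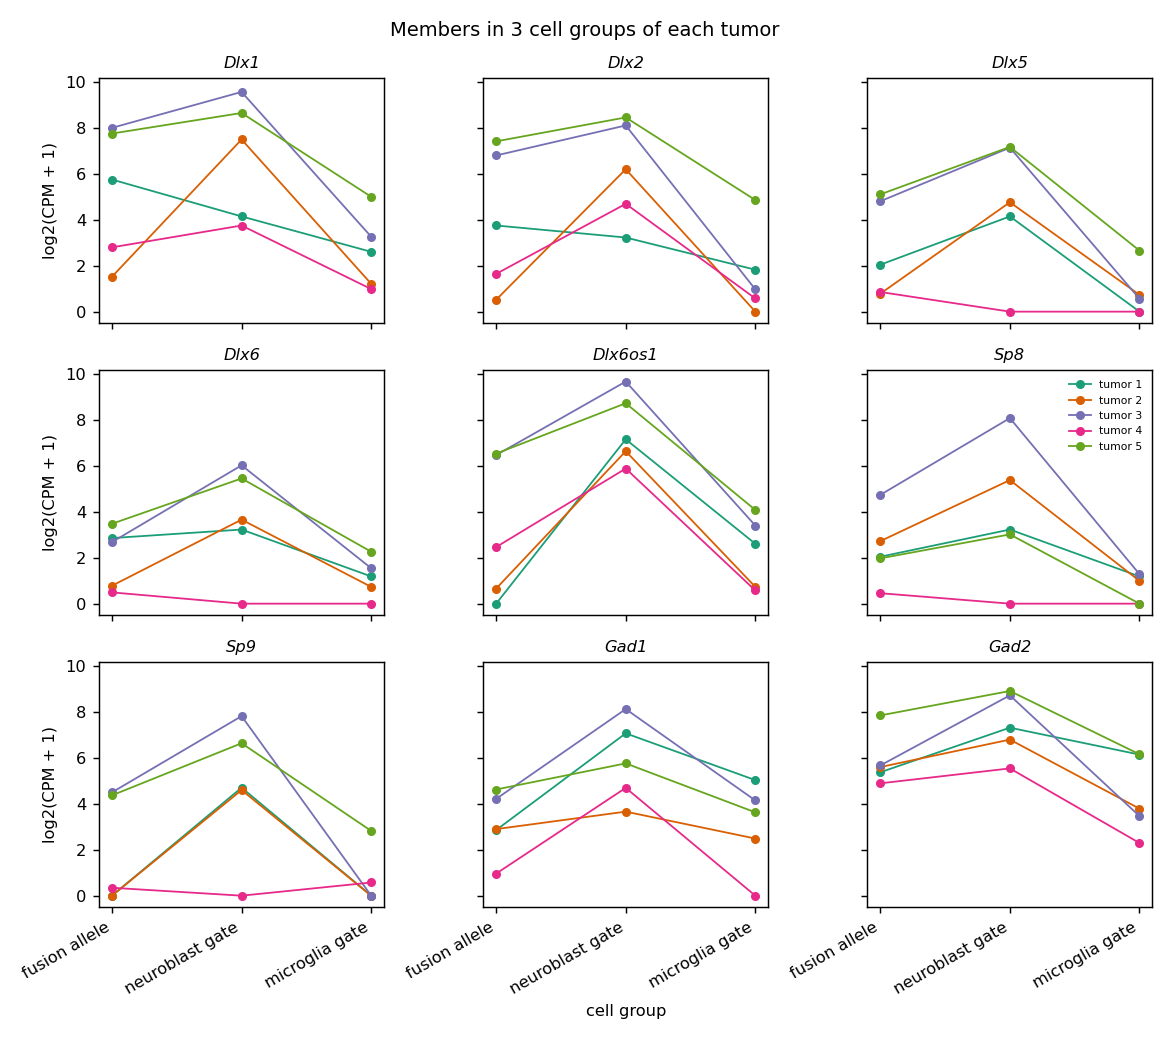
Level of each member as log2(CPM + 1) in fusion-allele, neuroblast-gated and microglia-gated cells, with 1 line per tumor. Neuroblast-gated cells are the highest of the 3 groups for Dlx6os1, Gad1 and Gad2 in all 5 tumors, with Dlx6os1 from 2 cells in tumor 1 and 1 cell in tumor 4.

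Fusion-allele cells held less of 8 of 9 members than neuroblast-gated cells of the same tumors, where 6.94% of 10356 genes were called lower, 9.31% higher and 16.3% in all (edgeR, tumor as a block). Dlx6os1 (log2 fold change -3.59, SE 0.51, adjusted p = 0.00197) and Sp9 (-3.10, SE 0.48, adjusted p = 0.0026) differed most. Gad1 (-2.44, SE 0.50, adjusted p = 0.0082) and Gad2 (-1.52, SE 0.31, adjusted p = 0.0085) were lower in 5 of 5 tumors. Dlx5, Dlx6 and Sp8 were lower by 2.48 to 2.53 on the log2 scale in 4 of 5 tumors, and Dlx2 stood at -2.12 (SE 0.63, adjusted p = 0.0407). Sp9 went the other way in tumor 4, with 0 CPM in neuroblast-gated and 0.271 CPM in fusion-allele cells. Dlx2 did so in tumor 1, with 8.40 and 12.5 CPM. In the neuroblast-gated cells of tumor 1, Dlx6 and Sp8 were 1 UMI each. These 2 genes met the filter on low counts only through the neuroblast-gated cells, where they were high in some tumors. Their calls are not independent of that height. Dlx1 (-1.87, SE 0.71, adjusted p = 0.0965) did not pass. The Dlx2 call was lost without tumor 1 or tumor 4, and Dlx6 was not tested without tumor 5. When the fusion-allele cells that passed the neuroblast gate were compared with neuroblast-gated cells without a transgene UMI, an alternative chosen after seeing the data, 0 of 8 tested members were called (Dlx1 at -0.03, Dlx2 at -0.23) and 34 of 9611 genes were. Only tumors 2, 4 and 5 had at least 20 such fusion-allele cells (35, 188 and 425). This alternative thus differs from the main comparison in tumors as well as in cells.

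Within fusion-allele cells the members went with the neuroblast gate, in a comparison also added after the data were seen. Tumors 2, 4 and 5 had at least 20 fusion-allele cells on both sides of the gate. Of the 9 members 8 were higher inside it, where 5.26% of 12865 genes were called higher, 8.65% lower and 13.9% in all (edgeR, tumor as a block). Dlx1, Dlx2, Dlx5, Dlx6, Dlx6os1 and Sp9 met the filter on low counts only through cells inside the gate, where they were high. Their calls are not independent of that height, so the count of 8 is a description and is not weighed against the share of all genes. Dlx6os1 (log2 fold change 4.20, SE 0.44, adjusted p = 0.000181), Dlx5 (4.06, SE 0.51, adjusted p = 0.000501) and Sp9 (3.99, SE 0.56, adjusted p = 0.00119) differed most, Sp9 in 2 of 3 tumors. Dlx1 stood at 3.33 (SE 0.64, adjusted p = 0.0054), Gad1 at 1.99 (SE 0.53, adjusted p = 0.0277) and Gad2 at 1.41 (SE 0.16, adjusted p = 0.000245). Sp8 did not pass (1.61, SE 0.76, adjusted p = 0.199).

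The tumors differed in the DLX level outside the gate. Inside it, the 4 Dlx genes summed to 99.7, 138.7 and 809 CPM in tumors 2, 4 and 5. In tumor 2 this value comes from 35 cells, 5.71% of which had a Dlx UMI, and without tumor 2 only Dlx5, Dlx6os1, Sp9 and Gad2 were called. In tumor 4 the sum was 0.629 CPM in radial-glia-gated, 5.39 CPM in cycling and 2.71 CPM in ungated fusion-allele cells, beside 1.47 CPM in microglia-gated cells. In tumor 5 it was 138 CPM, 383 CPM and 245 CPM in the same 3 groups, beside 68.5 CPM in microglia-gated cells. The free RNA of tumor 5 held 125 CPM of Dlx1, 96.8 CPM of Dlx2, 19.4 CPM of Dlx5 and 8.85 CPM of Dlx6, and only the cycling group of these 3 lay above their sum. The next highest group of tumor 4 was its 29 endothelial-gated fusion-allele cells, with 28.2 CPM from 6 UMIs in 1 cell, and the lowest of the 6 groups of tumor 5 was astrocyte-gated, with 102 CPM, below the free RNA.

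**Figure D4:**
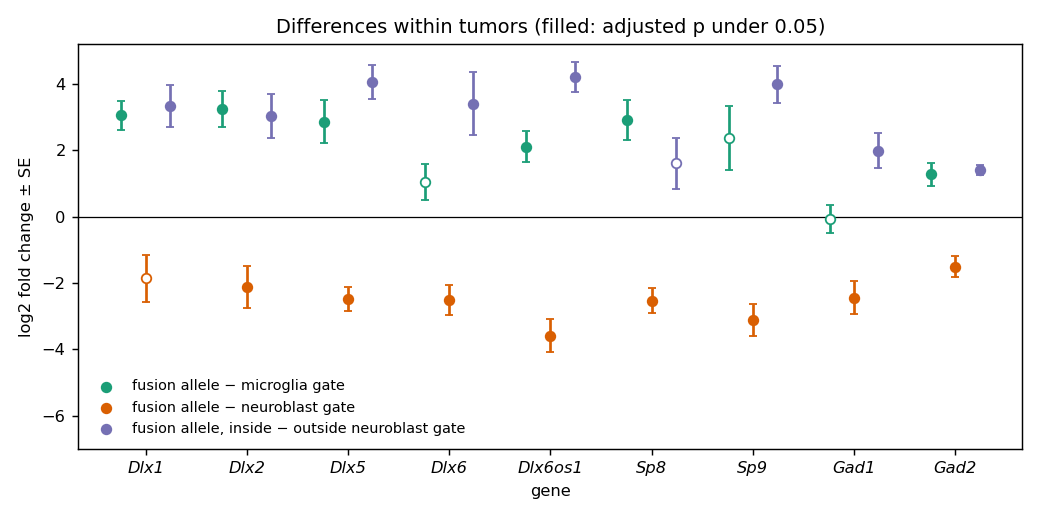
Log2 fold change with its standard error for each member in 3 comparisons within tumors, from 5 tumors for fusion-allele against microglia-gated and against neuroblast-gated cells and from 3 tumors for fusion-allele cells inside against outside the neuroblast gate. Filled points passed an adjusted p of 0.05, and the values against neuroblast-gated cells are below 0 for all 9 members.

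Gad2 was found in fusion-allele cells without a Dlx UMI. In tumor 4, 15.8% of these cells had a Gad2 UMI and 0.454% had a Gad1 UMI. Gad2 was 31.5, 21.2 and 28.6 CPM in radial-glia-gated, cycling and ungated fusion-allele cells of that tumor, above the 3.92 CPM of its microglia-gated cells and the 16.9 CPM of its free RNA. Cells of that tumor with a transgene UMI in other gates had a like level, at 25.0 CPM in microglia-gated, 22.4 CPM in OPC-gated and 20.6 CPM in astrocyte-gated cells, so Gad2 was not particular to the radial-glia-gated, cycling and ungated groups. In tumor 2 the same 3 groups had 55.3, 50.7 and 43.4 CPM of Gad2, above the 12.9 CPM of microglia-gated cells and below the 69.1 CPM of free RNA, while the 4 Dlx genes summed to 0, 0.551 and 2.31 CPM. Over all fusion-allele cells, Gad2 was 40.7, 47.8, 50.2, 28.9 and 231.6 CPM in tumors 1 to 5, and Gad1 was 6.26, 6.48, 17.6, 0.947 and 23.8 CPM. In tumor 1 the Gad2 value lay below the 70.2 CPM of its microglia-gated cells and can be read as background. The free RNA of tumors 1, 2, 3 and 5 held 181, 69.1, 99.3 and 275.5 CPM of Gad2, each above the fusion-allele value, so that only tumor 4 exceeded its free RNA.

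The ratio of the decarboxylase genes ran over a wide range between groups of cells. Over all kept cells of the controls there were 1.34 to 1.38 Gad2 UMIs per Gad1 UMI. In fusion-allele cells there were 6.50, 7.38, 2.85, 30.5 and 9.74 in tumors 1 to 5, though in tumor 1 from 13 and 2 UMIs. All 5 were above the all kept, interneuron-gated, neuroblast-gated and microglia-gated cells of every control, whose highest ratio was 1.74, though not above every small group, since endothelial-gated cells of control 3 had 20 UMIs of Gad2 and 3 of Gad1. Over all kept cells of tumors 1 to 5 the ratio was 1.63, 4.67, 0.914, 23.9 and 8.36, so tumor 3 lay below the controls. Neuroblast-gated cells of tumors 2 and 5 had 9.50 and 9.07 Gad2 UMIs per Gad1 UMI, those of tumors 1, 3 and 4 had 1.19, 1.52 and 1.83, and those of controls had 1.21 to 1.74. The microglia-gated cells of tumors 1, 2, 3 and 5 had 2.20, 2.79, 0.60 and 6.20. In tumor 5 the free RNA held 498 UMIs of Gad2 and 125 of Gad1, an excess of Gad2 in the same direction and smaller than in its fusion-allele cells. These ratios are a description with no test.

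**Figure D5:**
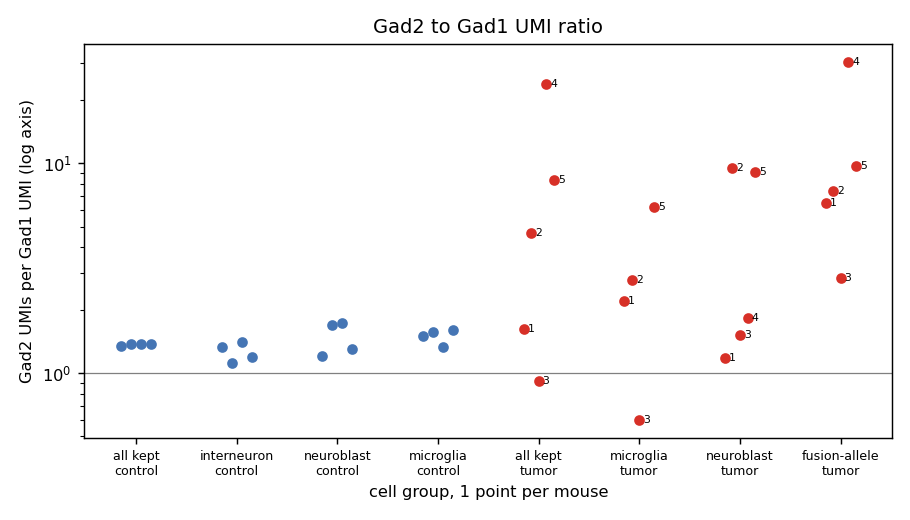
Gad2 UMIs per Gad1 UMI on a log axis in each mouse, with control groups in blue and tumor groups in red with the replicate number. The control groups drawn lie between 1.12 and 1.74 and fusion-allele cells reach 30.5 in tumor 4, whose microglia-gated cells are not drawn because they had 0 Gad1 UMIs.

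The DLX loci were also unequal. The UMIs of Dlx5, Dlx6 and Dlx6os1 per UMI of Dlx1 and Dlx2 were 2.83 to 3.43 over all control cells and 1.36 to 1.84 in control neuroblast-gated cells. In fusion-allele cells the ratio was 0.143, 0.875, 0.327, 0.708 and 0.351 in tumors 1 to 5. It lay below 1 in 5 of 5 tumors, though in tumor 1 from 3 and 21 UMIs. The ratio was also below the controls over all kept cells of tumors 1 to 5 (1.46, 0.745, 0.826, 0.69 and 0.511). In their microglia-gated cells it was 0.833, 1.5, 1.25, 0.333 and 0.423, in tumor 4 from 1 and 3 UMIs, against 2.5 to 3.75 in microglia-gated cells of controls. In the neuroblast-gated cells of the tumors the ratio ran from 0.54 in tumor 2 to 6.67 in tumor 1, from 20 and 3 UMIs.

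Neuroblast-gated cells without a transgene UMI were also compared between tumors and controls. Of the 9 members 6 passed the filter on low counts, all except Dlx5, Dlx6 and Sp8, and 2 were called higher in tumors, where 27.0% of 6850 genes were (25.9% were lower, 52.8% in all). These were Dlx1 (edgeR log2 fold change 2.19, SE 0.84, adjusted p = 0.041) and Dlx2 (2.93, SE 0.82, adjusted p = 0.00879). Dlx1 was 45.0, 62.1, 130.3 and 42.2 CPM in controls 1 to 4, so tumors 1 and 4 lay below every control and tumors 2, 3 and 5 above. Dlx2 was 27.0, 20.7, 42.6 and 5.63 CPM in controls 1 to 4 and 8.40, 73.0, 277, 25.0 and 354 CPM in tumors 1 to 5. Tumors 1 and 4, from 1 and 6 UMIs of Dlx2, lay within the control range. Dlx2 needed tumors 3 and 5, where it was high, to pass the filter, so its call is not independent of that height. Dlx6os1 (1.52, SE 0.65, adjusted p = 0.0635), Sp9 (1.52, SE 0.78, adjusted p = 0.114), Gad1 (-0.34, SE 0.59, adjusted p = 0.654) and Gad2 (0.48, SE 0.52, adjusted p = 0.453) did not pass.

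This comparison rested on single libraries. The Dlx1 call was lost without tumor 2 (2.26), tumor 3 (1.45) or tumor 5 (1.99) and without any 1 control, and Dlx2 failed the filter without tumor 3 or tumor 5. Of the 8 gate markers, 3 had ranges that did not overlap between the groups: Igfbpl1 was 31.0 to 103 CPM in controls and 202 to 2152 CPM in tumors, and Sox11 and Sox4 were also higher in every tumor. Their part in the result was not tested, nor was that of recombined cells without a captured transgene UMI. Interneuron-gated and spiny-neuron-gated cells were not compared, since 1 and 0 tumors had 20 such cells. Tumor 1 had 36 interneuron-gated cells, with 564 CPM of Gad1 and 642 CPM of Gad2.

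In single cells, members were found together to different degrees. In tumor 5, 53.2% of fusion-allele cells with a Dlx UMI had a second Dlx gene, 68.5% had Gad2 and 13.5% had Gad1. Among its fusion-allele cells without a Dlx UMI, 38.7% had Gad2 and 6.29% had Gad1. Cells with a Dlx UMI were deeper there, with a median of 4898.5 against 3883 UMIs, and after thinning Gad2 stood at 38.1% with and 26.5% without a Dlx UMI. In tumor 4, 46% of fusion-allele cells with a Dlx UMI had Gad2 and 18% had Gad1. Neuroblast-gated cells with a Dlx UMI had Gad1 in 51.3% and Gad2 in 65.8% in tumor 3, in 20.3% and 77.9% in tumor 5, and in 55.2% and 72.4% in control 3. The cells without a Dlx UMI had Gad1 in 14.3% and Gad2 in 19.0% in tumor 3, in 11.0% and 45.8% in tumor 5, and in 30.9% and 44.1% in control 3. In tumor 3 the cells with a Dlx UMI were deeper, with a median of 5402 against 2429 UMIs, and after thinning Gad1 stood at 26.3% with and 22.7% without a Dlx UMI and Gad2 at 50.9% and 31.8%.

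Cells with at least 2 Dlx UMIs were then taken from all kept cells of a tumor. They numbered 26, 135, 37 and 1194 in tumors 2 to 5, and 69.2%, 54.1%, 62.2% and 62.1% of them passed the neuroblast gate. A transgene UMI was found in 91.9% of them in tumor 4 and 40.0% in tumor 5, against 74.2% and 27.9% of the cells without a Dlx UMI. The cells with Dlx UMIs were deeper, with a median of 4513 against 3340 UMIs in tumor 5 and 7674 against 6513 in tumor 4. Within the neuroblast gate the shares were 95.7% with and 81.6% without a Dlx UMI in tumor 4, but 35.7% and 37.2% in tumor 5 and 8.22% and 22.2% in tumor 3. Over all kept cells of tumor 3 these shares were 6.67% and 6.30%, and in tumor 2 they were 7.69% and 32.8%. The cells with Dlx UMIs in tumors 2, 3 and 5 thus mostly had no captured transgene UMI.

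The genes most like the summed Dlx1, Dlx2, Dlx5 and Dlx6 were read over 100 sums of 1 cell group of 1 mouse, 42 from controls and 58 from tumors, on log2(CPM + 10). Of 17182 genes, those with a high Pearson correlation included the non-members Dlx1as (0.73), Gm14204 (0.71), and the neuroblast gate markers Sox11 (0.71) and Igfbpl1 (0.70). Among members outside the sum, Dlx6os1 was at 0.78, Sp9 at 0.77, Gad2 at 0.59, Sp8 at 0.54 and Gad1 at 0.34. Within the sums of controls and of tumors apart, Gad1 stood at 0.48 and 0.48 and Gad2 at 0.67 and 0.76. Dlx6os1 was at 0.82 and 0.85 there, Sp9 at 0.69 and 0.80 and Sp8 at 0.58 and 0.55. The sums of a mouse share a library and its free RNA, so these are descriptions.

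Other genes of the lineage were read from lists in the same fits. Of 5 upstream regulators, 4 were higher over all kept cells of tumors, led by Gsx2 (log2 fold change 5.47) and Gsx1 (4.67), homeobox factors of the lateral ganglionic eminence. The median of this list was 4.10, beside 1.03 over the 9 members and 0.04 over all genes tested. Of 4 tested regulators, 3 were higher in fusion-allele than in other tumor cells, where 15.7% of all genes were. Of 15 lineage transcription factors, 3 were higher and 2 lower over all cells, where 32.3% of all genes were higher and 29.4% lower, so a smaller share of this list was called than of all genes. The latter were Lhx8 (-3.02) and Lhx6 (-2.64), factors of medial ganglionic eminence neurons. Their median was 0.33.

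Against neuroblast-gated cells, where 6.94% of all genes were called lower, 4 of 12 tested lineage factors were lower in fusion-allele cells, led by Isl1 (-2.74) and Meis2 (-2.68). Within fusion-allele cells, 4 of 13 tested were higher inside the neuroblast gate, Isl1 (5.78) among them, where 5.26% of all genes were. Of 7 tested glutamatergic genes 3 were higher inside the gate, led by Eomes (6.42) and Neurod1 (6.27), which mark intermediate progenitors and young neurons of the excitatory lineage. Dlx1as was higher inside the gate (3.14) and in fusion-allele against microglia-gated cells (3.36), and over all cells it was not called (0.32).

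Some genes of mature neurons were lower over all cells of tumors, where 29.4% of all genes were called lower. Of 10 interneuron subtype genes 4 were lower, led by Vip (-3.03) and Sst (-2.88), a share near that of all genes. Lower calls were also made for 6 of 7 spiny neuron genes, Drd2 (-3.02) among them, and for 6 of 10 glutamatergic genes, Neurod6 (-3.57) among them. The medians of these lists were -1.20, -2.76 and -2.09. Of 6 migration genes, 2 were higher over all cells, the chemokine receptor Cxcr4 (4.62) and Cd24a (3.90), and 3 were lower, beside 32.3% of all genes higher and 29.4% lower. Of 4 genes of GABA synthesis and transport, Slc6a11, a GABA transporter of astrocytes, was higher over all cells (1.37) and in fusion-allele against neuroblast-gated cells (1.60), while Slc32a1, the vesicular GABA transporter, was lower in the latter comparison (-1.81).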

How the data were processed

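Whole-number UMI counts per gene and barcode, from 10x 5′ libraries of 4 control and 5 tumor mice, were deposited by the authors. The submitters' processing notes name Cell Ranger 7, Scanpy 1.8.2 and mm10, and the matrix header gives version 6.1.2. The depth was 5885675 to 37573835 UMIs in kept cells per mouse. The 10000 barcodes with most UMIs (all 9001 of tumor 3, whose free-RNA barcodes were therefore also considered as cells) were kept at 200 to 6000 genes, a 2-component Gaussian mixture (scikit-learn 1.9.0) removed cells of high mitochondrial share, and Scrublet (scanpy 1.11.5) removed 0.8% doublets per 1000 barcodes. The smallest deposited barcode of a library had 468 to 517 UMIs, so free RNA was read from barcodes that may also hold damaged cells. Controls had 75222 to 86516 deposited barcodes and tumors 9001 to 26341. The smallest barcode considered as a cell thus had 1473 to 2695 UMIs in controls and 500 to 2113 UMIs in tumors. Each of 17 gates needed at least 3 of its 8 markers and 1 more than the next gate. Counts of at least 20 cells were summed per mouse and tested with edgeR 4.0.16 (quasi-likelihood, TMM, filterByExpr, Benjamini-Hochberg over all genes tested, threshold 0.05), with the tumor as a block within tumors. DESeq2 1.42.0, filters, gates, the block and leaving out each mouse were alternatives. Scripts were tested on simulated counts. Poisson intervals and floors (3 UMIs) cover counting error only. Replicates are separate mice by the study's description, with no litter or batch given, and p-values measure the spread between these samples. Replicate pairs differed beyond sampling noise. The feature and barcode lists of control 4 were shorter than its matrix: its mouse genes were in the order of the other libraries, its transgene rows were read in that order, and its barcodes were not compared. The members and lists were chosen with earlier results of these data known. Members were named in every comparison, and from each list the 2 genes of largest change that passed, or a gene a result turned on. Some genes that this rule names are not reported here.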

Additional observations from a re-analysis of the deposited data

Results flagged for a closer look

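A sample was singled out where its gap to the nearest other sample of its group was a larger share of the range than Dixon's 95% critical value. This was tested in 63 sets of 1 member in 1 cell group of tumors or controls and singled out 11, where chance gives about 1 in 20.

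Over all kept cells, Dlx2 of tumor 5 (169.2 CPM, next tumor 47.0) and Sp8 of tumor 3 (35.0 CPM, next tumor 5.04) stood apart from the other tumors. In fusion-allele cells these were Gad2 of tumor 5 (231.6 CPM, next tumor 50.2) and Sp8 of tumor 3 (25.8 CPM, next tumor 5.62). In neuroblast-gated cells it was Sp8 of tumor 3 (272 CPM, next tumor 40.9). Sp8 was thus high in tumor 3 in all 3 groups of cells. Among microglia-gated cells, tumor 5 stood apart in Dlx1 (31.2 CPM, next 8.64), Dlx2 (28.2 CPM, next 2.55), Dlx5 (5.33 CPM, next 0.661) and Sp9 (6.09 CPM, next 0.49), in a library whose free RNA held 125 CPM of Dlx1. Among controls, Gad2 of control 1 (203.4 CPM, next 179) and Sp8 of control 4 (1.44 CPM, the other 3 at 0) stood apart in microglia-gated cells. The latter value is 1 UMI, under the floor of 3 UMIs, and with the other 3 controls at 0 any UMI would have singled it out.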

How the results depend on the processing

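Over the members, 461 of 577 repeats with another setting kept the direction and the side of the threshold, 75 lost a call, 18 gained one and 23 changed direction. The number of members called over all kept cells ranged from 0 to 3 when 1 mouse was left out and was 0 over all deposited barcodes. Against other tumor cells it ranged from 0 to 1 without 1 tumor and was 0 without the replicate block, with at least 2 transgene UMIs, without tumors 1 and 3 together, or with at least 2000 UMIs per cell. Against neuroblast-gated cells, 8 members became 0 without the replicate block, 5 with at least 50 cells and 0 for fusion-allele cells that pass the gate, and 7 to 8 without 1 tumor. Between groups in neuroblast-gated cells, 2 became 1 by DESeq2, 7 with no filter on low counts, 7 with at least 50 cells, and 0 to 4 without 1 mouse. Against microglia-gated cells, 6 became 0 without the replicate block, 5 with all microglia-gated cells and 3 to 6 without 1 tumor, and inside against outside the neuroblast gate 8 became 0 without the replicate block and 4 to 7 without 1 tumor. These alternatives on tumors 1 and 3, on UMIs per cell, on cells that pass the gate and on all microglia-gated cells were chosen after seeing the data. The cause was not tested.

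Replicate numbers were not used to pair tumors with controls. Same-numbered mice correlated at 0.0983, 0.0799, 0.0246 and 0.058 over genes, and not every pair passed 0.1. Pairs of unlike number ran from -0.179 to 0.119, and values this small cannot exclude a pairing. With the replicate block, 1 member was called over all kept cells (Gad2, lower) and 2 in neuroblast-gated cells (Dlx2, Sp8). Log2 fold changes reversed with the replicate block for Dlx1 (-0.056), Dlx5 (-0.86), Dlx6os1 (-1.83) and Sp9 (-1.51) over all kept cells and for Gad2 (-0.42) in neuroblast-gated cells, and for Dlx6os1 without tumor 5 (-0.49, with -0.49 to 0.66 over the mice left out). Against other tumor cells, Sp8 (-0.38) and Gad2 (-0.14) reversed without the replicate block, Dlx5 by DESeq2 (0.18), Dlx2 (-0.38) and Sp8 (-0.16) with at least 2 transgene UMIs, Sp8 with a luciferase or fusion UMI only (-0.027), and Dlx2 without tumors 1 and 3 together (-0.25). There, Dlx5 (0.12), Sp8 (-0.13) and Gad2 (-0.11) reversed without tumor 2, Dlx2 without tumor 3 (-0.17), Sp8 (-0.02) and Gad2 (-0.17) without tumor 4 and Dlx5 without tumor 5 (0.31). Without 1 tumor, Dlx2 ranged from -0.17 to 0.69, Dlx5 from -0.40 to 0.31, Sp8 from -0.13 to 0.26 and Gad2 from -0.17 to 0.40. Gad1 against microglia-gated cells reversed with all microglia-gated cells (0.014) and without tumor 1 (0.27) or tumor 3 (0.08), and ranged from -0.37 to 0.27. None of these passed the threshold under either setting.

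Over all genes, calls against other tumor cells went from 5214 to 643 without the replicate block and 2819 without tumor 2. Against neuroblast-gated cells they went from 1683 to 70 without the block, 1023 and 1006 without tumor 2 or 4, 429 with at least 50 cells and 34 for cells that pass the gate. In neuroblast-gated cells between groups they went from 3619 to 5432 with no filter. Against microglia-gated cells they went from 6263 to 3836 without the block. Inside against outside the gate they went from 1790 to 1187 by DESeq2, 0 without the block, and 575 and 789 without tumor 2 or 4. The mean share of neuroblast-gated tumor cells with a Dlx UMI was 40.7% and 34.5% after thinning over 5 tumors. Over the 4 tumors with 20 cells in a gate of 4 markers it was 51.9% with that gate and 48.7% with 3 markers, a comparison chosen after seeing the data. The mean share of fusion-allele cells with a Dlx UMI that had Gad1 or Gad2, over tumors 4 and 5, was 61.3% and 38.3% after thinning. Alternatives for interneuron-gated and spiny-neuron-gated cells were not run, since too few tumors had such cells.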
